A study of Mus musculus with 6 samples.

Results

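The genes described here are the subunits and receptor chains of interleukin-27 (IL-27), interleukin-12 (IL-12) and interleukin-23 (IL-23). They were taken by gene symbol, by a rule that used no measured value, though with earlier results of these data known. They are Il27, Ebi3, Il12a, Il12b, Il23a, Il27ra, Il12rb1 and Il12rb2, 8 of the 32285 genes in the count matrices. All samples were retinas of B6.CXB1-Pde6b-rd10/J mice (rd10), which lose their photoreceptors through a mutation of the rod phosphodiesterase gene Pde6b, so the saline group shares the degeneration and no retina without it was included. A single intravitreal injection of saline or of 20 ng recombinant IL-27 was given to one eye at P18, and the frozen retinas were processed to single nuclei at P20. Nuclear RNA was counted as unique molecular identifiers (UMIs) in 3 saline libraries, numbered 1, 2 and 6, and 3 IL-27 libraries, numbered 4, 5 and 10. The comparisons below ask which retinal cell types hold transcripts of these genes and whether the injected cytokine went with a different level of them.

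IL-27, IL-12 and IL-23 are cytokines of paired chains, made mostly by dendritic cells, macrophages and, in nervous tissue, microglia. IL-27 pairs p28, encoded by Il27, with EBI3, IL-12 pairs p35 (Il12a) with p40 (Il12b), and IL-23 pairs p19 (Il23a) with the same p40. EBI3 and p35 can also pair with each other, as IL-35. IL-27 signals through IL-27Rα (Il27ra) and gp130 (Il6st), IL-12 through Il12rb1 and Il12rb2, and IL-23 through Il12rb1 and Il23r, all by way of Janus kinases and STAT transcription factors. In retina and uvea, IL-27 is known as a cytokine that can restrain inflammation.

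The 6 libraries held 56634 barcodes, of which 52238 were retained after the count filters and removal of 3967 predicted doublets, and 50581 of those fell in 11 cell types named by markers. Total UMIs per library ran from 36678332 to 48260748. After nuclei of outlying depth were also set aside, 47222 nuclei were summed per library and type, and levels are given as CPM, in which every sum is scaled to the same total. The defining markers were highest in their own type for 8 of 9 in RGC, 9 of 9 in microglia, 9 of 9 in BC, 8 of 9 in AC and 8 of 8 in each of cones, rods, endothelial cells and pericytes. The match was weaker for HC (4 of 5), Muller glia (6 of 9) and astrocytes (3 of 6). Across libraries 322 barcode sequences were shared, and each was counted in its own library. The labels do not state whether the 3 libraries of a group came from separate animals, so p-values measure the spread between these libraries.

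Of the members, Il27 had the most UMIs, 5418 in all barcodes and 4632 in retained nuclei. Il12rb2 followed with 1411 retained UMIs, Ebi3 with 471, Il12a with 208 and Il23a with 131. The remaining members were rare, with 31 retained UMIs for Il12rb1, 24 for Il27ra and 19 for Il12b, and no nucleus held more than 5 UMIs of any member among the retained nuclei. For Il12b, 18 of 37 UMIs lay in barcodes called doublets, whereas that held for 7 of 217 Il12a UMIs.

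In the GENCODE annotation of GRCm38.p6, which holds 99.6% of the gene identifiers, Il27 (ENSMUSG00000044701) lay at chr7:126589010-126594941 on the minus strand, Ebi3 (ENSMUSG00000003206) at chr17:55952640-55957022 on the plus strand and Il12a (ENSMUSG00000027776) at chr3:68690644-68698547 on the plus strand. Il12rb2 (ENSMUSG00000018341) lay at chr6:67291318-67376188 on the minus strand, with Il23r 46744 bases upstream of it on the same strand. The far end of Il27 overlapped Apobr on the opposite strand, that of Il12rb2 overlapped Serbp1 and that of Ebi3 overlapped Gm16712. The strand setting of the counting is not given in the sources used here, and counts of such pairs are uncertain where the genes overlap. Apobr and Gm16712 were rare, with 98 and 261 summed UMIs, and Serbp1 had 22423.

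Promoter sequence is shown for Il12a and Ebi3, chosen among the subunit genes with at least 100 UMIs because their levels stood out in 1 cell type each. The windows are the 250 bases before each annotated start, from RefSeq on GRCm38.p6, which held entries for 4 of the 8 members. Il12a had a first window at chr3:68690394-68690643 and a second, inside the gene, at chr3:68691174-68691423, and the Ebi3 window was chr17:55952373-55952622, all on the plus strand. Capitals mark matches, on either strand, to a κB motif (GGGNNNNNCC), a GAS motif bound by STATs (TTCNNNGAA), a PU.1 motif (GAGGAA) and an ISRE motif bound by interferon regulatory factors (GAAANNGAAA).
Il12a first window: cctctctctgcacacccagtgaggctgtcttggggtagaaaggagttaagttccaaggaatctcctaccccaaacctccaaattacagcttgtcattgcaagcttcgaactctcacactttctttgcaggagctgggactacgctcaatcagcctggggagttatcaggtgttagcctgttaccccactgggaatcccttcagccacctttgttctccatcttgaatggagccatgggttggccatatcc
Il12a second window: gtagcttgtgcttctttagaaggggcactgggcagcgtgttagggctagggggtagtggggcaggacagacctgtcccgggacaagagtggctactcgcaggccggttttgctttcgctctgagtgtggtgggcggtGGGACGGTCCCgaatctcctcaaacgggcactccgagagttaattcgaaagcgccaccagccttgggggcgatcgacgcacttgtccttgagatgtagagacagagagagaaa
Ebi3: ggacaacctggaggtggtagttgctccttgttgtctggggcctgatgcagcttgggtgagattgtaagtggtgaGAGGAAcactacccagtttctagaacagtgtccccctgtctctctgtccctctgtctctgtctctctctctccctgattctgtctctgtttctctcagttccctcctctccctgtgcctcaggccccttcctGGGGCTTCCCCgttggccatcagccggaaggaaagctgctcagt
The first Il12a window held no match to the 4 motifs, and the second held a pair of overlapping κB matches, 1 on each strand, starting 113 and 112 bases before the second start. Ebi3 held a pair of overlapping κB matches beginning 44 and 43 bases before its start and a PU.1 match at 176 bases. The Il12b window, at chr11:44399813-44400062, held 2 PU.1 matches, and the Il12rb2 window, at chr6:67376189-67376438, held 1 GAS match. Such matches were common, since 45.8% of 32851 promoter windows of this length held the κB letters, 23.3% the PU.1 letters, 7.02% the GAS letters and 2.98% the ISRE letters.

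Il27, which encodes the p28 chain of IL-27, had UMIs in all 11 cell types at means from 15.6 to 32.3 CPM, and its highest mean levels were in cones and microglia. Free RNA can give UMIs in nuclei that do not express a gene, and its part in these levels was not tested. The mean was 32.3 ± 7.93 CPM in cones and 32.1 ± 8.26 CPM in microglia (SD, n = 6 libraries). Horizontal cells (HC) followed at 23.8 ± 5.18 CPM and Muller glia at 22.8 ± 7.45 CPM. Rods at 21.7 CPM, amacrine cells (AC) at 20.8 CPM and retinal ganglion cells (RGC) at 20.3 CPM were close together, and bipolar cells (BC) were at 16.6 ± 3.84 CPM. Endothelial cells, astrocytes and pericytes rested on 12, 23 and 3 Il27 UMIs, and their order cannot be read.

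Relative to all other summed nuclei of the same library, Il27 was 1.59 times as high in cones and 1.55 times as high in microglia, each in 6 of 6 libraries, and 0.749 times as high in BC, below the others in 6 of 6. Each had p = 0.03125 in a two-sided exact paired sign-flip test, the smallest that 6 libraries can give, and 0.104 after Benjamini-Hochberg adjustment over 10 types. In the order of levels, only microglia against HC and RGC against BC differed among the 10 neighbouring pairs at an unadjusted p = 0.03125 (exact sign-flip test), and the adjusted p of both was 0.156. Cones and microglia did not differ beyond their spread (p = 0.96875, exact sign-flip test).

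With edgeR's quasi-likelihood test over type sums with library as a block, Il27 was called higher than the mean of the other types in cones (log2 fold 0.71, SE 0.13, adjusted p = 2.18e-06), HC (0.67, SE 0.17, adjusted p = 0.00057) and microglia (0.43, SE 0.18, adjusted p = 0.0314). In these contrasts 35.2%, 25.9% and 34.8% of 15605 genes were called higher, so a call of this kind was not rare. The HC call was lost when library totals replaced TMM scaling (log2 fold 0.16, adjusted p = 0.462), and the microglial call was lost under 5 of 11 alternatives.

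Since nuclei differed in depth, from a median of 1249 UMIs in rods to 10036 in HC, detection was also compared after each nucleus was thinned to 1000 UMIs and shallower ones were left out, 3838 of 14401 rods and 25 of 1409 microglia among them. The share of nuclei with an Il27 UMI was then 3.46% in microglia and 2.06% in rods, a difference of 1.40 ± 1.32 percentage points (SD, n = 6) that was above 0 in 6 of 6 libraries (p = 0.03125, two-sided exact sign-flip test). Cones exceeded rods by 1.08 ± 0.75 points in 6 of 6 libraries (p = 0.03125, exact sign-flip test). Before thinning the order was a different one, with 6.74% of microglia (median 2092 UMIs), 8.24% of cones (median 2546), 2.72% of rods and 22.0% of HC holding an Il27 UMI. The microglia-rod difference was 0.944 points with another random draw (p = 0.03125, exact sign-flip test). With a finer clustering, nuclei of outlying depth kept and a fresh draw, it was 0.396 points (p = 0.34375, exact sign-flip test). The parts of these 3 changes were not tested.

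**Figure D1:**
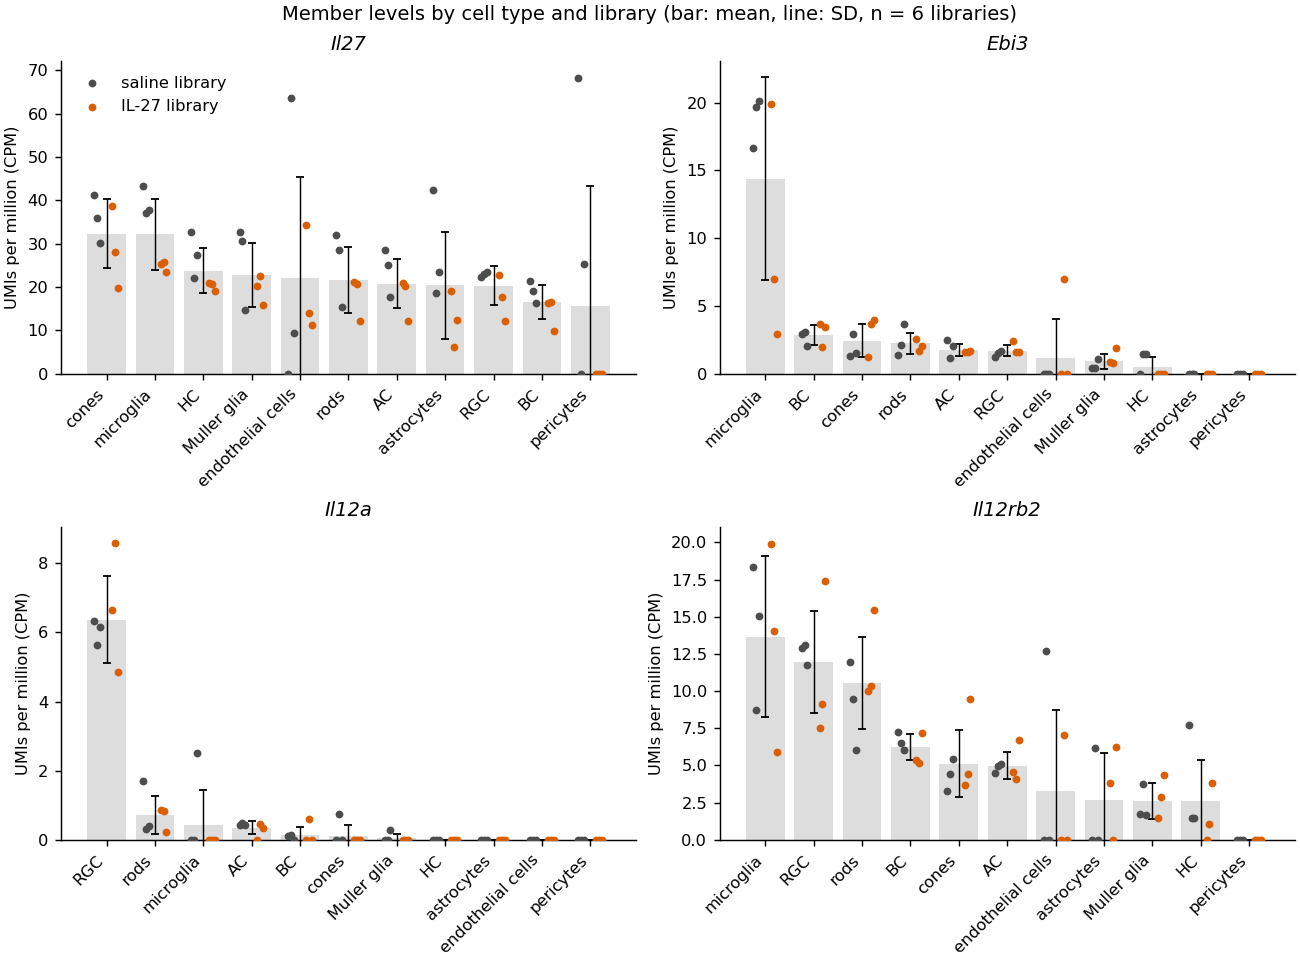
Levels of Il27, Ebi3, Il12a and Il12rb2 in CPM (y axis) by cell type (x axis, ordered by mean), with 1 point per library in grey for saline and orange for IL-27, a bar for the mean and a line for the SD over 6 libraries. Il27 spread over all types, from 15.6 to 32.3 CPM, whereas Ebi3 stood out in microglia at 14.4 CPM and Il12a in RGC at 6.37 CPM.

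Ebi3, the partner chain of p28, was highest in microglia. The microglial level was 16.7, 19.7 and 20.1 CPM in saline libraries 1, 2 and 6 and 19.9, 7.03 and 2.95 CPM in IL-27 libraries 4, 5 and 10. The saline libraries lay close together and the IL-27 libraries were far apart, and the groups overlapped (p = 0.3, exact permutation test).

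All 6 libraries had more Ebi3 in microglia (14.4 ± 7.50 CPM) than in the other nuclei (1.93 ± 0.22 CPM), a ratio of 7.46. The exact sign-flip test gave p = 0.03125, or 0.0833 adjusted over 8 types. Microglia entered that test only through their own 45 UMIs, with 6.15 expected, so its p-value adds no support. Ebi3 was below the other nuclei in all 6 libraries in Muller glia (0.909 CPM, 0.395 times) and in HC (0.485 CPM, 0.223 times). BC were at 2.87 CPM, cones at 2.44 CPM and rods at 2.23 CPM, and astrocytes and pericytes had no UMI, which allows up to 2.68 and 10.9 CPM (3 counts of the total). An Ebi3 UMI was found in 2.91% of microglia and in 0.369% of the deeper Muller nuclei (median 4372 UMIs).

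Il27 and Ebi3 transcripts were also counted in the same nucleus. Of 3748 nuclei with an Il27 UMI 35 also held Ebi3, 0.934%, against 0.805% of the nuclei without Il27, which were shallower (median 3268 against 5200 UMIs). Among microglia 2 of 95 nuclei with Il27 held Ebi3 (2.11%), against 2.97% of those without.

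Il12a, which encodes the p35 chain of IL-12 and IL-35, was concentrated in RGC, the output neurons of the retina. Saline libraries 1, 2 and 6 had 6.33, 5.62 and 6.16 CPM in RGC, and IL-27 libraries 4, 5 and 10 had 6.65, 8.59 and 4.86 CPM. Every library lay above the same library's level in any other type, and the treatment groups overlapped.

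RGC held 144 of 190 summed Il12a UMIs (75.8%) but 4.40% of the summed nuclei. Their mean of 6.37 ± 1.26 CPM was 24.0 times that of the other nuclei (0.266 ± 0.114 CPM) and higher in 6 of 6 libraries. The exact sign-flip test gave p = 0.03125, or 0.0391 adjusted over 5 types. RGC entered that test only through their own 144 UMIs, with 6.01 expected, so its p-value adds no support. Rods were next at 0.721 CPM with 13 UMIs and AC at 0.356 CPM with 23 UMIs, and microglia had 1 UMI. An Il12a UMI was found in 6.06% of RGC (median 9923 UMIs), in 0.0194% of Muller glia (median 4372 UMIs) and in 0 of 478 HC (median 10036 UMIs), which allows up to 0.628% of nuclei with a UMI and sets no limit on nuclei that express the gene. At 1000 UMIs per nucleus the share was 0.818% of RGC and 0.0284% of rods. Of 18810 genes with at least 100 UMIs, 7% had their highest mean in RGC.

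Within RGC, Il12a was uneven. Among 34 sub-clusters of 2182 retained RGC nuclei, 9 sub-clusters with 435 nuclei had no Il12a UMI, while the 5 highest by share held 73 of 149 UMIs (49.0%) in 14.3% of the nuclei. The highest share was 10 of 36 nuclei (27.8%, exact 95% interval 14.2 to 45.2%), in a sub-cluster led by Apela and Fbn2 with an Il12a UMI in 6 of 6 libraries. Next were 15 of 69 nuclei (21.7%) in one led by Kcng1 and Cacna1e, and 23 of 112 nuclei (20.5%) in one led by Pde1a and Insrr. These sub-clusters were ranked by the share itself, so the order is a description, and intervals here and below cover counting error only.

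**Figure D2:**
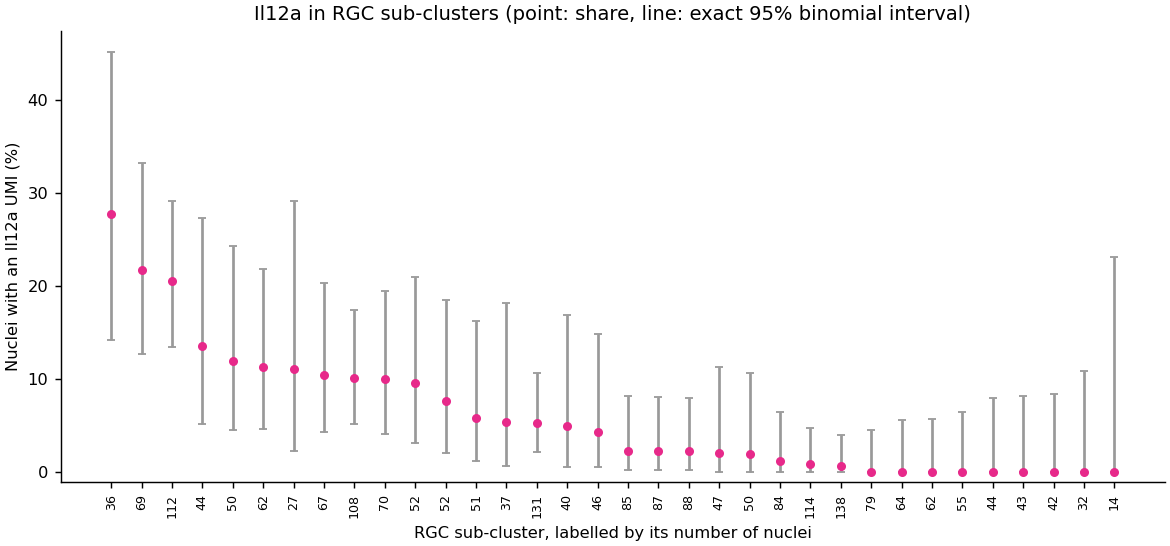
Share of nuclei with an Il12a UMI (y axis, percent) in each of the 34 RGC sub-clusters (x axis, ordered by share and labelled by number of nuclei), with exact 95% binomial intervals. The shares ran from 27.8% of 36 nuclei down to 9 sub-clusters at 0.

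Genes that mark known RGC types were used to split the same nuclei, pooled over libraries, so these splits are not separate evidence from the sub-clusters. Foxp2 was among the leading genes of sub-clusters with Il12a in 13.6%, 11.1% and 10.2% of nuclei. RGC nuclei with a UMI of Foxp2, a transcription factor that marks a set of RGC types, held Il12a in 55 of 391 (14.1%, exact 95% interval 10.8 to 17.9%), against 76 of 1791 (4.24%, 3.36 to 5.28%) of those without it, which were slightly deeper. Nuclei with Eomes, found in RGC that include the melanopsin cells, held Il12a in 4 of 120 (3.33%), and nuclei with Opn4 (melanopsin) in 3 of 74 (4.05%). Schip1, the nearest gene upstream of Il12a on the same strand at 64163 bases, was itself highest in RGC, and 6.48% of RGC nuclei with a Schip1 UMI held Il12a against 1.05% of 190 without.

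Il12b, which encodes the p40 chain common to IL-12 and IL-23, was found in only 17 nuclei, 4 of them called doublets. In microglia it had 7 UMIs, 5 of them in saline library 6 and 2 in IL-27 library 4. Of 17 nuclei, 8 held a gene of a list of 6 dendritic cell markers (Flt3, Zbtb46, Xcr1, Clec9a, Cd209a and Ccr7) and 5 held at least 2 of them, whereas 392 of 56205 nuclei in all (0.697%) held at least 2. Of those 392, 57 lay in the microglial cluster and 48 were predicted doublets. Their median was 10795.5 UMIs, against 3599 in the other nuclei, so holding 2 of these genes does not by itself mark a dendritic cell here. The share of all nuclei with at least 1 of the genes is not given here. Of the 7 nuclei with more than 1 Il12b UMI, 6 held a dendritic or microglial marker, and of the 10 with a single UMI 6 held none. The nucleus with the most Il12b, 12 UMIs, was a predicted doublet in saline library 2 that also held Flt3 and Ptprc. No nucleus held Il12b together with Il12a or with Il23a. Il12a was found in only 0.358% and Il23a in 0.226% of retained nuclei. With 17 Il12b nuclei, joint detection would be rare in any case, so its absence cannot be read.

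Il23a, which encodes the p19 chain of IL-23, was low and spread over neurons and Muller glia. Cones were at 1.23 CPM, with libraries from 0 to 3.67 CPM, Muller glia at 0.836 ± 0.557 CPM and BC at 0.638 ± 0.572 CPM, and none of the 6 types tested passed against the other nuclei (smallest p = 0.1875, exact sign-flip test). None of 1409 microglia held an Il23a UMI, which allows up to 0.937 CPM, which is above the levels of BC and AC, so microglia could hold as much as these neurons at this depth.

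Among the receptor chains, Il27ra, the chain that binds IL-27, had 21 summed UMIs. Microglia held 12 of them, 9 in IL-27 library 5, endothelial cells and RGC held 3 each, cones 2 and AC 1, while none was seen in 14401 rods, 9965 BC or 5144 Muller glia, which allows up to 0.158, 0.0663 and 0.126 CPM. The microglial level (2.94 ± 3.92 CPM) was above the other nuclei in 4 of 6 libraries (p = 0.125, exact sign-flip test). Only microglia were tested, through their own 12 UMIs, with 0.152 expected. Endothelial cells had a higher mean, 5.45 ± 9.06 CPM, but from 3 UMIs in 2 of 6 libraries.

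Il12rb1, the chain that binds p40, was highest in microglia. Its level there was 6.66, 2.19 and 2.51 CPM in saline libraries 1, 2 and 6, from 4, 1 and 1 UMIs, and 3.62, 5.85 and 2.95 CPM in IL-27 libraries 4, 5 and 10, from 2, 5 and 1 UMIs. The groups overlapped. The mean of 3.96 ± 1.86 CPM was 54.4 times that of the other nuclei (0.0729 CPM) and higher in 6 of 6 libraries. The exact sign-flip test gave p = 0.03125, also after adjustment over 2 types. Microglia entered that test only through their own 14 UMIs, with 0.237 expected, so its p-value adds no support.

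The microglial cluster also held lymphocyte transcripts, so both chains were counted by the 8 T and NK cell genes (Cd3e, Cd3g, Cd247, Trac, Nkg7, Klrb1c, Prf1 and Skap1). Of 56205 nuclei, predicted doublets included, 121 (0.215%) held at least 2 of these genes, 60 from saline and 61 from IL-27 libraries. Of the 121, 89 lay in the microglial cluster and 20 were predicted doublets. Il27ra was found in 11 of the 121 (9.09%, exact 95% interval 4.63 to 15.7%), in 6 of 1585 other nuclei of the cluster (0.379%, 0.139 to 0.822%) and in 0.0202% of the 54499 nuclei elsewhere. Il12rb1 was found in 8 of the 121 (6.61%, 2.90 to 12.6%), in 0.631% of the other cluster nuclei and in 0.0330% elsewhere. Those 8 nuclei came from 2 of 6 libraries, and the 11 with Il27ra from 4 of 6. The 121 lymphocyte-gene nuclei had a median of 1987 UMIs, below the 2261 of the rest of the cluster and the 3688 of nuclei elsewhere.

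Il12rb2 was likewise higher in the 121 nuclei, where 14.9% held it (exact 95% interval 9.06 to 22.5%), than in the other cluster nuclei at 1.70% (1.13 to 2.47%), but nuclei elsewhere held it at 2.50%. Ebi3 and Il27 had other patterns. Ebi3 was found in 0.826% (1 nucleus, 0.0209 to 4.52%), 2.97% (2.19 to 3.92%) and 0.833% (0.758 to 0.913%) respectively. Its excess was thus present in the microglial nuclei without lymphocyte genes. The interval of the 121 nuclei covers both other shares, so they cannot be told from either set. Il27 was found in 10.7%, 7.76% and 8.75%, with overlapping intervals for the first and the others. Summed over the 8 genes, the microglial level ran from 8.75 to 387 CPM in the saline libraries and from 41.7 to 357 CPM in the IL-27 libraries, and all 8 were found. The 6 dendritic genes ran from 105 to 143 CPM and from 109 to 134 CPM. Their part in the microglial values of the receptor chains between treatments was not tested.

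**Figure D3:**
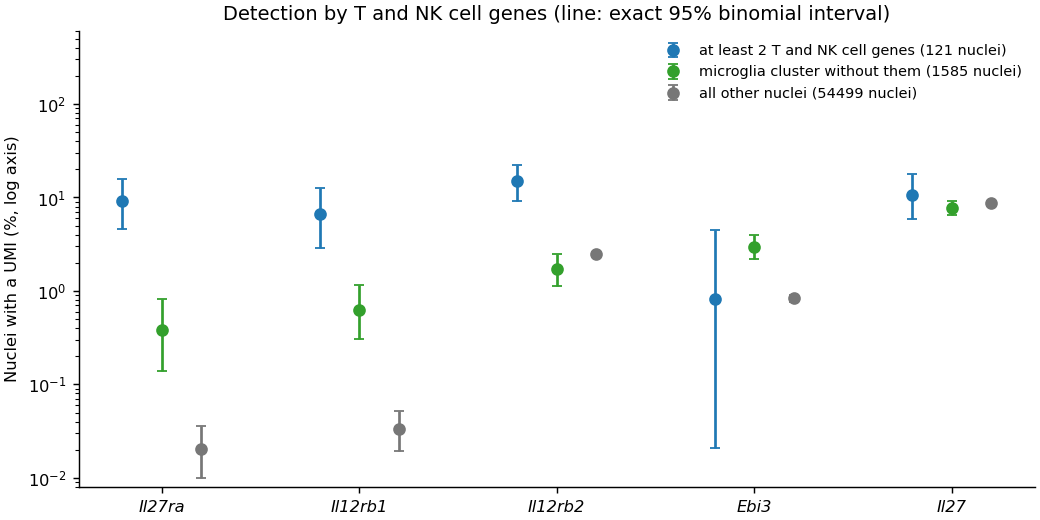
Share of nuclei with a UMI of each gene (y axis, percent on a log scale) among nuclei with at least 2 T and NK cell genes (blue), the other nuclei of the microglial cluster (green) and all other nuclei (grey), with exact 95% binomial intervals. Il27ra and Il12rb1 fell from 9.09% and 6.61% in the first set to 0.0202% and 0.0330% in the last, and Il27 stayed between 7.76% and 10.7% in all 3. Predicted doublets are included, and the first set held Il27ra in 4 of 6 libraries and Il12rb1 in 2 of 6.

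Il12rb2, the chain that carries the STAT4 docking site of the IL-12 receptor, was found in more cell types than Il27ra and Il12rb1, the other receptor members. It had 13.7 ± 5.43 CPM in microglia, 12.0 ± 3.45 CPM in RGC and 10.5 ± 3.09 CPM in rods, then 6.26 CPM in BC and 5.12 CPM in cones. AC were at 4.99 CPM, Muller glia at 2.64 CPM, and pericytes had no UMI. RGC were 2.08 times and rods 1.78 times the level of the other nuclei, each in 6 of 6 libraries, while AC (0.698 times) and Muller glia (0.378 times) were lower in 6 of 6. All of these had p = 0.03125 in the exact sign-flip test and 0.0625 adjusted over 8 types. In microglia the ratio was 2.17, above 1 in 5 of 6 libraries (p = 0.09375, exact sign-flip test). In the microglial cluster Il12rb2 was at 9.10 CPM over the nuclei without lymphocyte genes, against 31.3 CPM over the 121 nuclei with them and 6.22 CPM elsewhere, and the part of the 121 nuclei in the microglial rank was not tested. Microglia, RGC and rods did not differ from each other in the order beyond the spread. Rods were above BC in 6 of 6 libraries (p = 0.03125, exact sign-flip test), with an adjusted p = 0.3125 over 10 pairs.

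Nuclei that held receptor chains together were few. Of 28 nuclei with Il12rb1 3 also held Il12rb2 (10.7%, against 2.24% of nuclei without Il12rb1), and 1 held Il23r. All 3 with Il12rb2 lay in the microglial cluster, where the shares were 21.4% and 2.15%. That cluster also held nuclei with lymphocyte genes, in which both chains were more often found, and their part in these 3 nuclei was not tested. Of 20 nuclei with Il27ra 4 held Il6st, the shared gp130 chain (20%, against 17.5% of nuclei without Il27ra). Il6st was present in every type, highest in pericytes at 209 CPM and endothelial cells at 147 CPM, with 114 CPM in microglia and 108 CPM in Muller glia. Il23r, the second chain of the IL-23 receptor, had 71 of its 118 summed UMIs in AC.

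For each member with at least 100 UMIs, the genes with the most similar profile over the 11 types were sought among 18809 genes by Pearson's r, a description over types that share libraries. Il12a was closest to Irx4 (r = 0.99), Scin (0.99) and Ppp1r1c (0.98), all highest in RGC. Ebi3 was closest to Gm13814, Snx27 and Rtcb (0.96, 0.96 and 0.95), which were highest in microglia, and Il27 to Gm12905, Plekhm1 and Ms4a14 (0.83 each). Il12rb2 was closest to Smim18 (0.97), Ccnb2 (0.96) and Hectd3 (0.94), whose highest types were rods, microglia and RGC in turn. Il23a was closest to Gm32151, Fam171b and Gm11630 (0.95, 0.94 and 0.94).

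Between treatments, the mean level of Il27 was lower in the IL-27 libraries, but the difference passed no adjusted test. Over all retained nuclei it was at 27.3, 25.2 and 18.2 CPM in saline libraries 1, 2 and 6 and at 20.6, 19.3 and 12.4 CPM in IL-27 libraries 4, 5 and 10. Saline library 6 lay below IL-27 libraries 4 and 5, so the groups overlapped, as they did for all 8 members over the whole retina, where 3.65% of genes had all IL-27 libraries lower and 4.58% had them all higher. The means were 23.6 ± 4.73 and 17.4 ± 4.41 CPM (SD, n = 3 each; p = 0.3, two-sided exact permutation test, where 0.1 is the smallest possible). The edgeR log2 fold change was −0.44 (SE 0.21, unadjusted p = 0.074, adjusted p = 0.999909). The injected agent is a protein, and it carries no Il27 transcript.

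In microglia Il27 was at 43.3, 37.2 and 37.7 CPM in saline libraries 1, 2 and 6 and at 25.4, 25.8 and 23.6 CPM in IL-27 libraries 4, 5 and 10. All saline libraries were above all IL-27 libraries there. The log2 fold change was −0.66 (SE 0.30, unadjusted p = 0.042, adjusted p = 0.99993, edgeR), and the exact permutation p was 0.1. In HC the groups also did not overlap, with 32.7, 22.0 and 27.3 CPM against 21.0, 20.8 and 19.1 CPM. The nearest libraries in HC were only 22.0 and 21.0 CPM. These levels rested on 102 summed Il27 UMIs in microglia and 120 in HC over all 6 libraries, so each library held few. Groups with all IL-27 libraries lower were seen for 4.01% of genes in microglia and 4.97% in HC. At 1000 UMIs per nucleus the microglial groups overlapped (p = 0.3, exact permutation test).

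The mean of Il27 was lower with IL-27 in 11 of 11 types, which share the same 6 libraries and so are not separate evidence. Cones, at 41.2, 36.0 and 30.2 CPM with saline and 38.8, 28.1 and 19.7 CPM with IL-27, overlapped between groups. The other fitted log2 fold changes were −0.54 in rods, −0.45 in HC, −0.40 in AC and in Muller glia, −0.38 in BC, −0.31 in RGC and −0.28 in cones. The Muller glia class summed 2 clusters, and the smaller, led by genes such as Slc6a13, Fbln1, Zic4 and Optc, held 550 saline and 111 IL-27 retained nuclei, against 2495 and 2275 in the larger. Their Il27 levels were 23.3 and 24.1 CPM, and the part of the smaller cluster in the fold was not tested. Whether the fold differed between types was tested by an interaction term in edgeR and not called (adjusted p = 1), where 0.737% of 15605 genes were. In sums of nuclei, fewer nuclei with the transcript and less transcript per nucleus cannot be told apart.

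**Figure D4:**
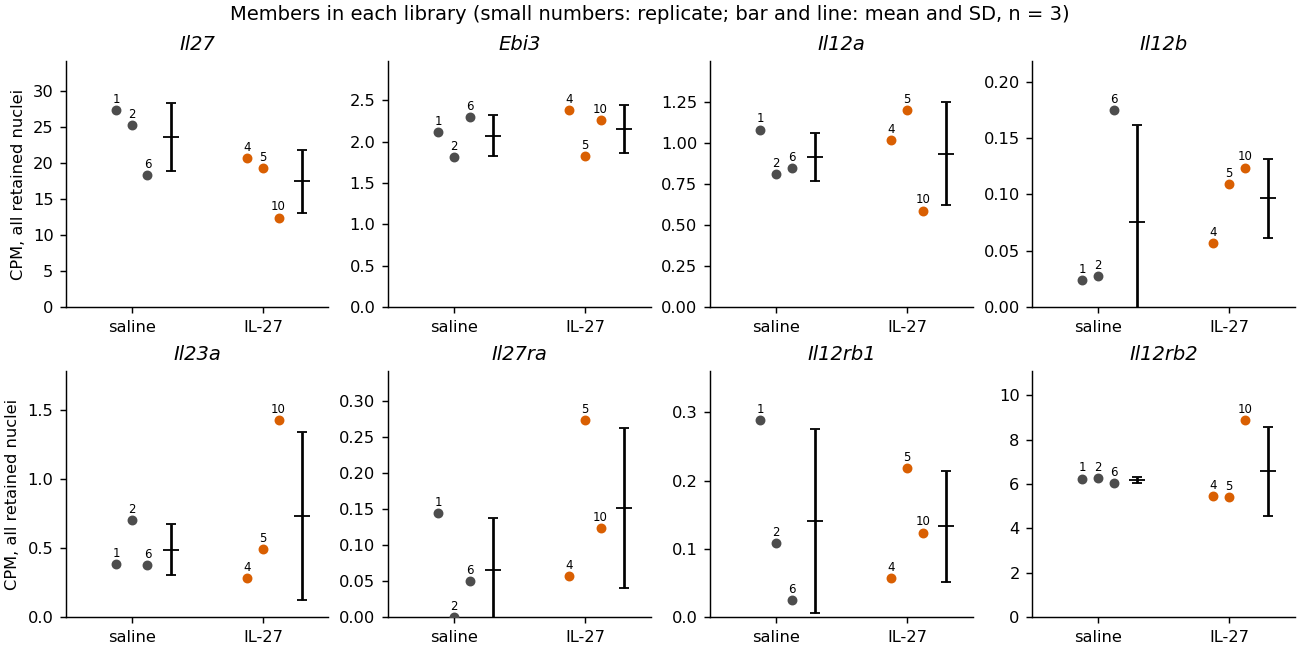
Level of each of the 8 members over all retained nuclei (y axis, CPM) in the saline and IL-27 libraries, with replicate numbers beside the points and the mean and SD (n = 3, cut at 0) beside each group. The groups overlapped for every member, and IL-27 library 10 was the highest for Il23a and Il12rb2 and the lowest for Il27 and Il12a.

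The other members had no direction common to the libraries. For Ebi3 the whole-retina values were 2.11, 1.81 and 2.30 CPM with saline and 2.38, 1.83 and 2.26 CPM with IL-27 (log2 fold change 0.04, SE 0.18). For Il12a they were 1.08, 0.811 and 0.849 CPM against 1.02, 1.20 and 0.588 CPM (0.04, SE 0.30), and the fold in RGC was 0.20 (SE 0.27). The groups overlapped in both.

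Il23a rested on 1 library. Its whole-retina level was 0.384, 0.703 and 0.374 CPM with saline and 0.283, 0.491 and 1.42 CPM with IL-27, and 46 of 131 UMIs came from IL-27 library 10. The log2 fold change was 0.56 (SE 0.55, adjusted p = 0.999909, edgeR) and became −0.30 without that library. That library had the fewest UMIs in total, 36678332, and the part of its depth in these values was not tested. Il12rb2 was likewise highest in IL-27 library 10, at 8.88 CPM against 5.44 and 5.40 CPM in the other IL-27 libraries and 6.25, 6.27 and 6.04 CPM with saline. Its log2 fold change was 0.07 (SE 0.18) and became −0.18 without library 10. By type it was 0.40 in rods, 0.29 in Muller glia, 0.07 in AC, −0.15 in BC and −0.21 in RGC. Within Muller glia Il12rb2 was at 4.90 CPM in the smaller cluster, which was mostly of saline nuclei, and at 2.45 CPM in the larger, and the part of this split in the Muller fold was not tested.

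In total 21 tests covered 5 members in 9 fits, because Il27ra, Il12b and Il12rb1 passed the count filter in none. edgeR called 0 of the 21 at an adjusted p of 0.05, with 1 at an unadjusted p under 0.05 (Il27 in microglia). DESeq2 also called 0, with 1 at an unadjusted p under 0.05, which was Il27 in whole retina (0.042) and not in microglia (0.142). Across all fits 8 of 126398 gene tests were called (0.00633%), with 0.00603% of genes in AC, 0.00663% in BC, 0.0286% in Muller glia, 0.00753% in rods and 0% in HC, RGC, cones, microglia and whole retina, so calls were scarce for genes of any kind.

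**Figure D5:**
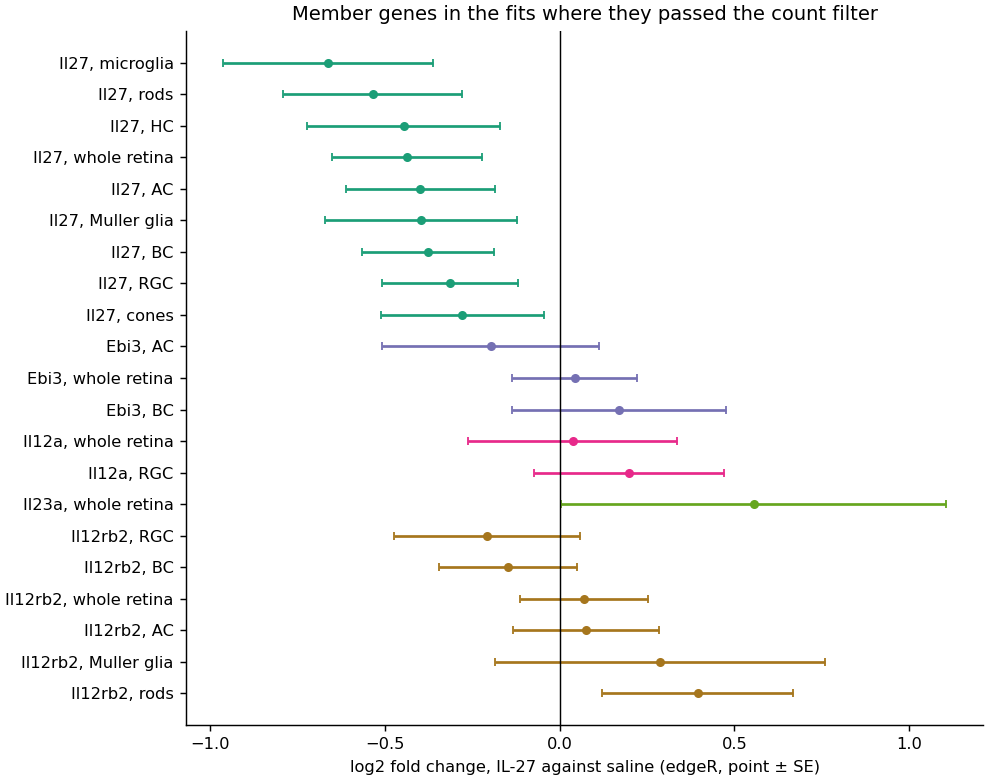
Log2 fold change of IL-27 against saline (x axis, edgeR, point with SE) for each member and fit in which it passed the count filter (y axis, 21 fits). All 9 Il27 points lie below 0, from −0.66 to −0.28, and the points of the other members lie on both sides of 0.

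The wider pathway gave no call. Of listed genes, 2 of 2 partner receptor chains, 8 of 8 kinases and STATs, 5 of 5 feedback genes, 14 of 16 target genes and 10 of 10 regulators of subunit transcription were tested in whole retina, and 0 were called by edgeR in either direction, with 0 at an unadjusted p under 0.05, and DESeq2 called 0 with 1 at an unadjusted p under 0.05. The median log2 fold change was 0.31 over the 14 target genes, with 12 above 0, and 0.11 over the regulators, with 8 above 0, against a median of 0.0018 over all genes tested. Genes of a list share the same 6 libraries and so are not separate evidence. The medians differed by type. For target genes they were 0.56 in Muller glia (8 of 9 above 0) and −0.024 in microglia (3 of 8). For regulators they were 0.19 (6 of 8) and −0.030 (4 of 9). In whole retina Stat3, a transcription factor activated by gp130 receptors, had 0.09 (SE 0.11), Stat4 −0.04, Jak1 0.02, Jak2 −0.07 and Tyk2 0.06. Il6st had −0.0015 and Il23r 0.56 (SE 0.30, unadjusted p = 0.094).

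By an unadjusted p from edgeR, the other listed genes closest to a call were Irf8, a myeloid transcription factor (0.57, SE 0.26), Cxcl9, an interferon-induced chemokine (1.60, SE 0.89), and Socs3, a feedback inhibitor of gp130 signalling (0.54, SE 0.32), each with an adjusted p of 0.999909 in edgeR. Within microglia the log2 fold change was 0.10 for Irf8, −0.18 for Spi1, −0.23 for Batf3 and −0.13 for Il10ra, against 0.57, 0.25, 0.40 and 0.31 in whole retina. Spi1 and Batf3, myeloid transcription factors, and Il10ra, an interleukin-10 receptor chain, were chosen after their values were seen. The summed microglia numbered 261, 183 and 179 nuclei in saline libraries 1, 2 and 6 and 242, 389 and 155 in IL-27 libraries 4, 5 and 10, and the part of these numbers in the whole-retina folds was not tested. Jak1, Jak2, Tyk2 and Stat4 were highest in microglia, at 265, 230, 88.4 and 65.9 CPM, and Stat3 in astrocytes at 382 CPM.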

How the data were processed

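The authors' deposited files are filtered matrices of raw UMI counts per gene and nucleus, 1 per library, with no normalization. Per the labels they were made with Cell Ranger 9.0.1 and used in Seurat 5.2.1, and the matrix headers name cellranger 8.0.1. The genome build is not given in the sources used here.

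Barcodes needed over 500 UMIs, 200 detected genes or more and a mitochondrial share below 5%, and Scrublet in scanpy 1.11.5 was set to mark 8% of each library as doublets, less a share for pairs of one type. Nuclei were clustered on 25 components of 2000 variable genes, with the members and pathway genes left out, by Louvain clustering at a resolution of 0.25. Of 36 clusters those that passed a check of fixed markers were named, which left 1657 nuclei unnamed. A nucleus whose log total lay more than 2 median absolute deviations off that of its type was set aside, and counts were summed per library and type.

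Sums with at least 10 nuclei in every library were fitted with edgeR 4.0.16 (glmQLFit, TMM, filterByExpr at 10 counts) and, as an alternative, DESeq2 1.42.0, with p-values adjusted over all genes of a fit. Fits between cell types held library as a block. Single values were tested by exact permutation of 3 against 3 libraries or by exact sign flips over 6 libraries, two-sided, with scipy 1.17.1, for types with at least 10 observed or expected UMIs. The fits were tested on simulated counts first.

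The genes named are the 8 members, the partner chains, kinases and STATs fixed by the rule (1 of them is not reported here), called genes of the pathway lists or otherwise the 3 of smallest p in whole retina, and the 3 genes most like each member with at least 100 UMIs. The members and all gene lists were chosen with earlier results of these data known. The count files alone were used.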

Additional observations from a re-analysis of the deposited data

How the results depend on the processing

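No paired analysis of the treatments was possible, because each mouse was injected in 1 eye, with saline or IL-27. The labels name no pairs among the saline libraries (1, 2 and 6) and the IL-27 libraries (4, 5 and 10). The count of called member tests was 0 under 15 of 15 alternatives, although the calls over genes of any kind and all fits, 8 in the main setting, were 129 with DESeq2 (21 of them in whole retina against 0), 505 with no filter on low counts, 4 with the filter at 20 counts and 5 to 450 when libraries were left out, 450 without IL-27 library 10, 19 without IL-27 library 4, 14 without IL-27 library 5 and 15 without saline library 6. All 132 alternative Il27 log2 fold changes between treatments were below 0, but they reuse the same 6 libraries and are not separate evidence. When libraries were left out in turn they ran from −0.59 to −0.23 in whole retina, −0.70 to −0.59 in microglia and −0.58 to −0.06 in cones. With cell types weighted equally the whole-retina value was −0.65. That value gives full weight to endothelial cells, astrocytes and pericytes, with 12, 23 and 3 Il27 UMIs. Il27 in microglia gave no value with the filter at 20 counts, which it did not pass. Between types, Il27 was called in 3 types in the main setting, 5 with all retained nuclei, 5 without removal of doublets and 2 to 6 when libraries were left out, 6 without saline library 1.

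The Il27 detection difference of microglia minus rods was 2.72 points at 2000 UMIs (p = 0.09375), 0.912 without removal of doublets (p = 0.09375) and 0.396 at a clustering resolution of 0.5 (p = 0.34375), and 0.927 to 1.64 when libraries were left out, all by exact sign-flip tests. With 5 libraries the smallest p of that test is 0.0625, so no leave-one-out value can pass. The ratios to other nuclei, whose alternatives were chosen after seeing the data, then ran from 21.3 to 25.6 for Il12a in RGC, 6.77 to 8.94 for Ebi3 in microglia, 46.1 to 63.7 for Il12rb1 in microglia, 2.03 to 2.18 for Il12rb2 in RGC and 1.71 to 1.91 for Il12rb2 in rods, which was 1.70 with all retained nuclei (p = 0.0625, exact sign-flip test).

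Some uncalled log2 fold changes turned sign when libraries were left out, and the cause was not tested. For Ebi3 they ran from −0.43 to 0.038 in AC (above 0 without saline library 1), −0.0086 to 0.42 in BC (below 0 without IL-27 library 4 or saline library 6) and −0.053 to 0.14 in whole retina (below 0 without saline library 2 or IL-27 library 4). For Il12a they ran from −0.0069 to 0.34 in RGC (below 0 without IL-27 library 5) and −0.19 to 0.29 in whole retina (below 0 without saline library 2, saline library 6, IL-27 library 4 or IL-27 library 5). For Il12rb2 they ran from −0.14 to 0.21 in AC, −0.072 to 0.76 in Muller glia and −0.18 to 0.18 in whole retina, each below 0 without IL-27 library 10, and from −0.58 to 0.033 in RGC, above 0 without IL-27 library 4. For Il23a in whole retina they ran from −0.30, without IL-27 library 10, to 0.93. Ebi3 in whole retina was also −0.0077 without removal of doublets, −0.025 at a 1% mitochondrial limit and −0.30 with types weighted equally, Il12a in whole retina −0.13 and Il12rb2 in whole retina −0.0024 with types weighted equally, and Il12rb2 in AC −0.038 at a resolution of 0.5. Depth limits the rare members, since Il27ra, Il12b and Il12rb1 have 19 to 31 retained UMIs.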
